A study of Mus musculus with 14 samples.

Results

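The mitochondrial genome of the mouse encodes 37 genes, and all 37 rows of the deposited count table whose gene symbol begins with mt- were taken, out of 55291 rows. They divide into 13 protein-coding genes, 2 ribosomal RNA (rRNA) genes and 22 transfer RNA (tRNA) genes, and each of them is an annotated gene of the mitochondrial chromosome. The RNA came from whole tibia of wild-type female C57Bl/6 mice, and 14 libraries fell into 5 groups. The groups were ovariectomy followed by zoledronic acid (OVX-ZA, n = 3), ovariectomy followed by 3-(3-hydroxyphenyl)propionic acid (OVX-PPA, n = 2), ovariectomy followed by hippuric acid (OVX-HA, n = 3), ovariectomy followed by phosphate-buffered saline (OVX-PBS, n = 3) and sham surgery (sham, n = 3). Agents were given for 8 weeks, starting 2 to 4 days after the operation, and neither the age of the mice nor the doses are given in the labels. Ovariectomy removes the main source of oestrogen and is used as a model of bone loss after menopause. Zoledronic acid is a bisphosphonate that blocks bone resorption, and both other agents are acids that also arise from dietary polyphenols. The labels do not say that the libraries of a group came from separate animals, so the p-values below measure the spread between these samples.

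Mitochondrial DNA is a small circle that is transcribed from both strands into long precursors. In most places a tRNA lies between the larger genes, and cutting the tRNAs out of the precursor releases the mRNAs and rRNAs. The 13 proteins are core subunits of the respiratory chain and of ATP synthase, and every other subunit comes from the nucleus. In animals the mRNAs carry short poly(A) tails, which is how a library made from poly(A) RNA can hold them. Mitochondrial RNA is abundant in muscle, in brown fat and in other cells with a high oxidative demand. Osteoclasts, the cells that resorb bone, are also rich in mitochondria.

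The genes are packed with almost no space between them, and some share bases, which bears on how a read can be assigned. Genes overlapping on one strand are shown first, in the mm10 build (GENCODE vM21 transcripts), with the shared bases in capitals. mt-Atp8 and mt-Atp6 lie on the plus strand and share 43 bases, which begin with the start codon of mt-Atp6 and end with the stop codon of mt-Atp8 (window chrM:7915-7981). mt-Nd4l and mt-Nd4, also on the plus strand, share 7 bases (window chrM:10155-10185). The minus-strand gene mt-Ts1, the tRNA with the most counts, ends with 3 bases that lie opposite the stop codon of mt-Co1 and are in capitals (chrM:6870-6938).
mt-Atp8/mt-Atp6: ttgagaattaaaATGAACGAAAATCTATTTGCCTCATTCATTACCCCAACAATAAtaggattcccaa
mt-Nd4l/mt-Nd4: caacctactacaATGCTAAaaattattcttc
mt-Ts1: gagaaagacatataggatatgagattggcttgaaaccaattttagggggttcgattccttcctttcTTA

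Nuclear DNA holds inserted copies of mitochondrial sequence, and 7 annotated copies on the minus strand of chromosome 1 (chr1:24611535-24616197) matched an mt gene at 99% identity or more over at least 100 bases. Gm10925 matched 678 of the 681 bases of mt-Atp6 with no difference, Gm28661 matched 681 of the 684 bases of mt-Co2, and Gm28437 matched 783 of the 784 bases of mt-Co3. Gm10222 matched 294 of the 297 bases of mt-Nd4l, and Gm28439 matched the first 876 of the 1378 bases of mt-Nd4, again with no difference. Gm28438 differed from mt-Nd3 at a single base of 345 (T3C, counted from 1 at the first base of the gene, the mt base given first). Gm29216 covered the last 483 bases of mt-Co1 and differed at a single base (A1066T, counted in the same way). The sequences around these differences are shown with the differing base in capitals, because within the aligned stretch only reads that cross it can tell the genes of a pair apart by sequence. They are from mm10 at chrM:9459-9481 (plus strand), chr1:24613097-24613119 (minus strand), chrM:6390-6413 (plus strand) and chr1:24616165-24616188 (minus strand).
mt-Nd3: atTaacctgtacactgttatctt
Gm28438: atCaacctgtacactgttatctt
mt-Co1: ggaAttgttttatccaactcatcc
Gm29216: ggaTttgttttatccaactcatcc

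Mitochondrial genes were among the most abundant of the tibia. Over the 14 libraries, whose totals were 11896820 to 35418060 estimated counts, the 37 genes held 12.88% ± 1.51 (SD, n = 14), with 9.96% in the lowest library and 15.68% in the highest. By library the share was 13.75%, 13.75% and 13.5% in OVX-ZA, 14.08% and 12.12% in OVX-PPA, 12.51%, 11.01% and 12.16% in OVX-HA, 15.68%, 12.97% and 11.15% in OVX-PBS, and 13.48%, 9.96% and 14.29% in sham. The OVX-ZA libraries lay close together, while OVX-PBS and sham each spanned more than 4 percentage points and overlapped every other group. Group means were 13.66% ± 0.143 in OVX-ZA (n = 3), 13.1% ± 1.39 in OVX-PPA (n = 2), 11.89% ± 0.787 in OVX-HA (n = 3), 13.27% ± 2.28 in OVX-PBS (n = 3) and 12.58% ± 2.30 in sham (n = 3; SD throughout). The Wilson 95% interval of a library's share extended at most 0.02 percentage points to either side, and it covers counting error only.

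Nearly all of this share was mRNA. Protein-coding genes held 12.88% of counts on average, the 2 rRNA genes 0.0023% ± 0.000445 and the 22 tRNA genes 0.000594% ± 0.000168 (SD, n = 14). Below, an mRNA stands for a protein-coding gene, so the 13 genes are counted as 13 mRNAs. The rRNA share ran between 0.00174% and 0.00339%, and the tRNA share between 0.000381% and 0.000847%. In each library the mRNA genes had 4630 to 7900 times as many counts as the rRNA genes.

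**Figure D1:**
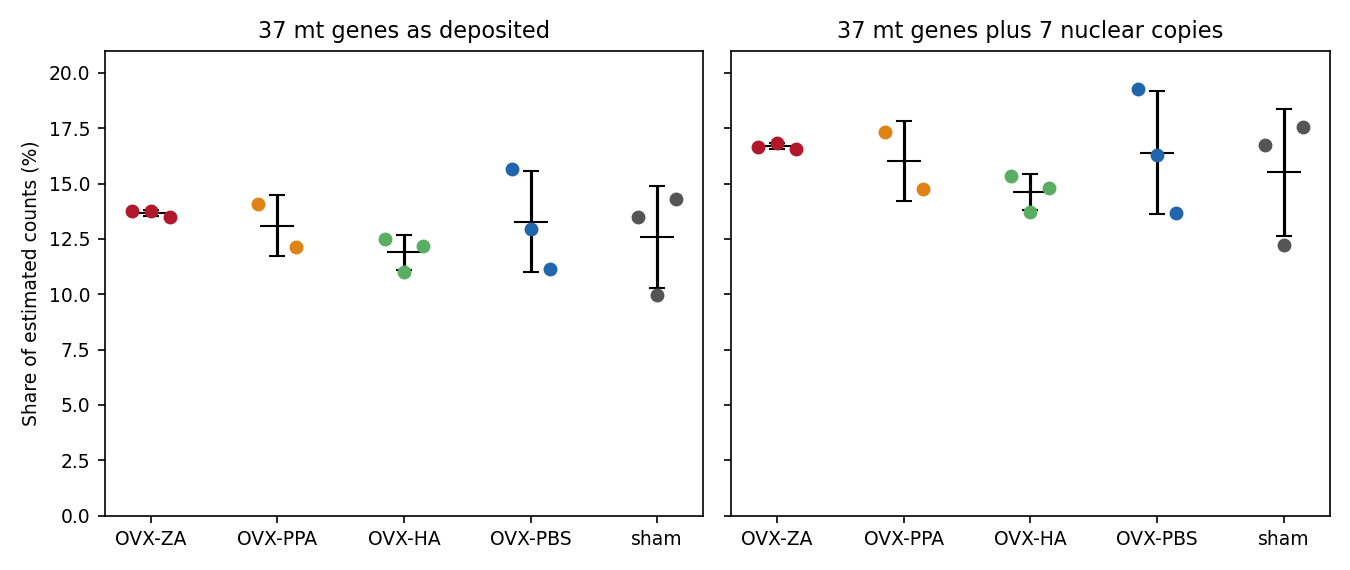
Share of each library's estimated counts (%, vertical axis starting at 0) on the 37 mitochondrial genes as deposited (left) and with the 7 near-identical nuclear copies added (right), by group; points are libraries, bars are the mean ± SD. As deposited, OVX-ZA libraries sit between 13.5% and 13.75%, inside the 11.15% to 15.68% of OVX-PBS, and adding the copies lifts the mean of the 14 libraries to 15.84%.

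Levels are given per length, in CPM per kb, where CPM is the library-scaled count after TMM scaling and kb is the length of the gene. The whole annotated length was used, without a correction for read or fragment length, which matters most for short genes. mt-Co1, the catalytic subunit of complex IV (cytochrome c oxidase), stood highest at 24423 ± 4082 CPM per kb (SD, n = 14), above mt-Atp6 in 14 of 14 libraries. It also had the most counts of any gene of the table in every library. The other complex IV subunits, mt-Co2 and mt-Co3, had 11491 ± 1927 and 10155 ± 1812 CPM per kb. mt-Cytb, the only mitochondrially encoded subunit of complex III and part of its catalytic core, had 12578 ± 1964 CPM per kb.

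The 7 complex I subunits (NADH dehydrogenase) formed a higher and a lower set. mt-Nd1 had 12024 ± 2032, mt-Nd4 11520 ± 1994 and mt-Nd2 9823 ± 1981 CPM per kb (SD, n = 14). mt-Nd6, the sole protein gene of the minus strand, had 4894 ± 736, mt-Nd4l 4117 ± 890, mt-Nd5 3752 ± 561 and mt-Nd3 3734 ± 713 CPM per kb. mt-Nd2, the lowest of the higher set, exceeded mt-Nd6 in 14 of 14 libraries. mt-Nd4l and mt-Nd3 are the shortest of the 7 genes (297 and 348 bases) and share counts with nuclear copies, as given below. With those copies added, mt-Nd4l had 5532 and mt-Nd3 5443 CPM per kb, and mt-Nd2 exceeded mt-Nd4l in 14 of 14 libraries. mt-Nd4l and mt-Nd4 overlap, yet they fell in different sets. mt-Nd5 and mt-Nd3 could not be ordered, since each was above the other in 7 of 14 libraries.

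ATP synthase takes its proton-channel subunit from mt-Atp6 and a small membrane subunit from mt-Atp8. mt-Atp6 had 14100 ± 2493 and mt-Atp8 13056 ± 3228 CPM per kb, and mt-Atp6 was the higher in 9 of 14 libraries (SD, n = 14). mt-Atp8 exceeded mt-Cytb in 9 of 14 libraries, and mt-Nd4 exceeded mt-Co2 in 9, so these neighbours did not differ beyond their spread. mt-Co3 exceeded mt-Nd2 in 8 of 14. The remaining neighbours in the order kept their places in 12 to 14 of the 14 libraries.

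The rRNA genes stood far below the mRNAs in the deposited counts of these poly(A) libraries. Whether a processing tool removed rRNA or tRNA reads before counting is not given in the sources used here. mt-Rnr1, the 12S rRNA of the small ribosomal subunit, had 11.6 ± 2.31 CPM per kb, and mt-Rnr2, the 16S rRNA of the large subunit, had 7.67 ± 2.28 (SD, n = 14). The mean over the mRNAs was 1080 times the mean over the rRNAs on this scale. mt-Rnr1 had 108 to 374 counts in a library and mt-Rnr2 had 99 to 426.

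tRNA genes had 2183 counts over all 14 libraries together. Minus-strand tRNA genes, 8 of the 22, took 83.0% of them. mt-Ts1, a serine tRNA, alone took 1353 counts (62.0%), and mt-Tl1, a leucine tRNA on the plus strand directly after mt-Rnr2, took 303 (13.9%). mt-Te (glutamate) had 158 counts, mt-Ty (tyrosine) 128 and mt-Tq (glutamine) 87, all 3 on the minus strand. mt-Tk, mt-Tg, mt-Tr and mt-Tl2 had 0 counts in every library, which allows up to 3 counts, or 0.0847 CPM in the deepest library and 0.252 CPM in the shallowest. This bound covers counting error only. The other 13 tRNA genes had at most 7 counts in a library. All tRNA genes are short, at 59 to 75 bases. Whether their counts came from mature tRNA or from longer precursors was not tested. Whether the authors counted by strand is not given in the sources used here. For the genes of the minus strand, including mt-Nd6, reads of the gene and reads of antisense RNA from the opposite strand therefore cannot be told apart.

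**Figure D2:**
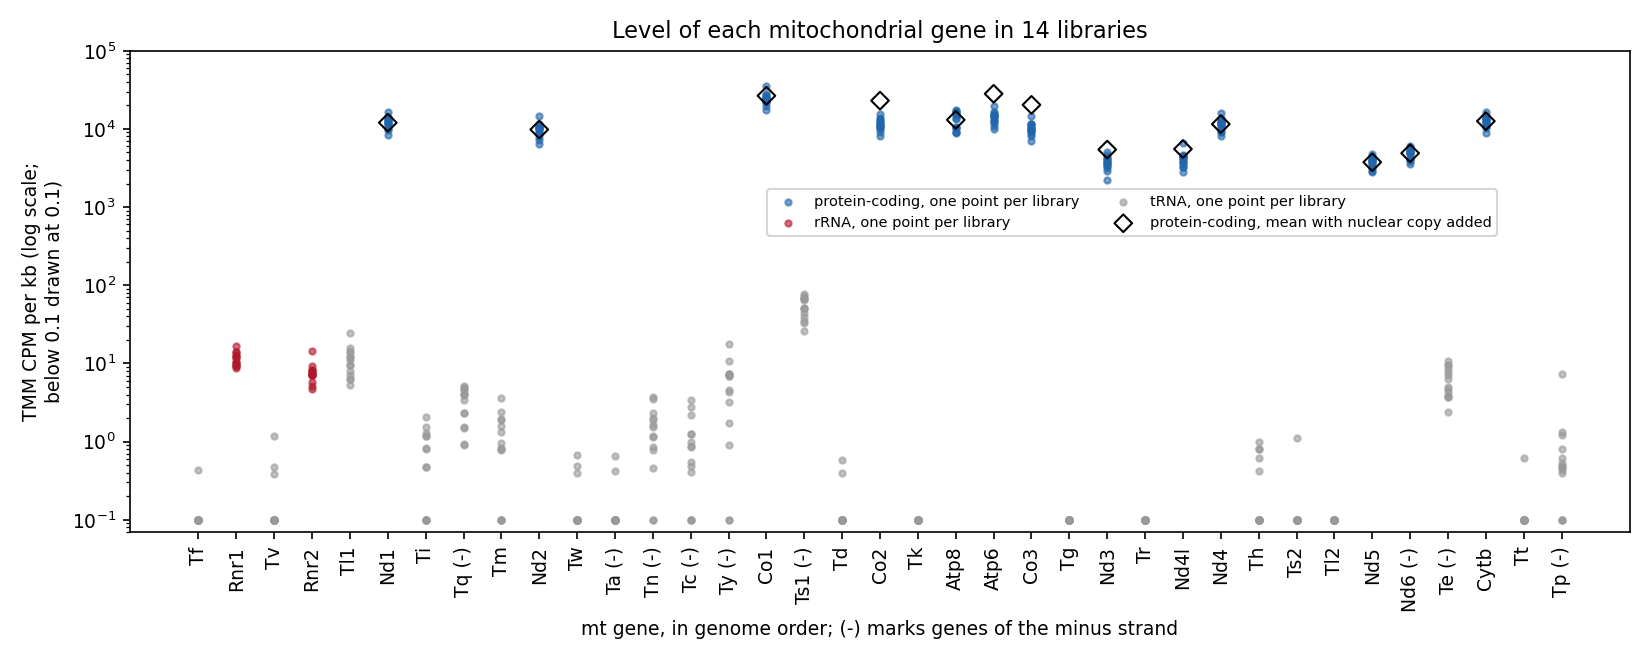
Level of each of the 37 mitochondrial genes (CPM per kb, log axis; values below 0.1 are drawn at 0.1) in genome order, with one point per library and open diamonds for the mean of a protein-coding gene after its nuclear copy was added. Protein-coding genes lie between 2242 and 34910 CPM per kb, the rRNA genes between 4.75 and 16.9, and among tRNA genes mt-Ts1 stands highest, with a mean of 53.5.

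Counts were split evenly between mt gene and nuclear copy in 3 of the 7 pairs and unevenly in the other 4. Gm28661 held 50% of the counts of itself and mt-Co2, Gm28437 50% of those shared with mt-Co3, and Gm10925 49.9% ± 0.0567 of those shared with mt-Atp6 (SD, n = 14). In these 3 pairs the copy's part lay between 49.8% and 50.2% in every library. Gm28438 held 31.3% ± 5.06 of the counts shared with mt-Nd3, with 23.7% in the lowest library and 40.1% in the highest. Gm10222 held 25.3% ± 2.71 against mt-Nd4l, and Gm29216 held 8.07% ± 2.18 against mt-Co1. Gm28439 held 0.0108% or less of the counts shared with mt-Nd4 in every library, although it matches 63.6% of that gene without a difference. The labelled counts of mt-Co2, mt-Co3, mt-Atp6, mt-Nd3, mt-Nd4l and mt-Co1 are therefore uncertain as levels, because reads that lie wholly in an aligned stretch and cross no difference fit both genes. For mt-Co1 this concerns the last 483 bases, and reads from the rest of the gene do not lie in the match to Gm29216.

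Adding the copies changed the order of the levels. mt-Atp6 then stood first at 28139 ± 4976 CPM per kb, above mt-Co1 (26569 ± 4370) in 11 of 14 libraries. mt-Co2 followed at 22994 ± 3853 and mt-Co3 at 20308 ± 3624 CPM per kb, both above mt-Atp8 in every library (SD, n = 14). The share of counts on the mt genes and their copies came to 16.69% ± 0.139 in OVX-ZA (n = 3), 16.03% ± 1.801 in OVX-PPA (n = 2), 14.62% ± 0.823 in OVX-HA (n = 3), 16.4% ± 2.79 in OVX-PBS (n = 3) and 15.5% ± 2.88 in sham (n = 3). OVX-PBS and sham again overlapped the other groups.

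**Figure D3:**
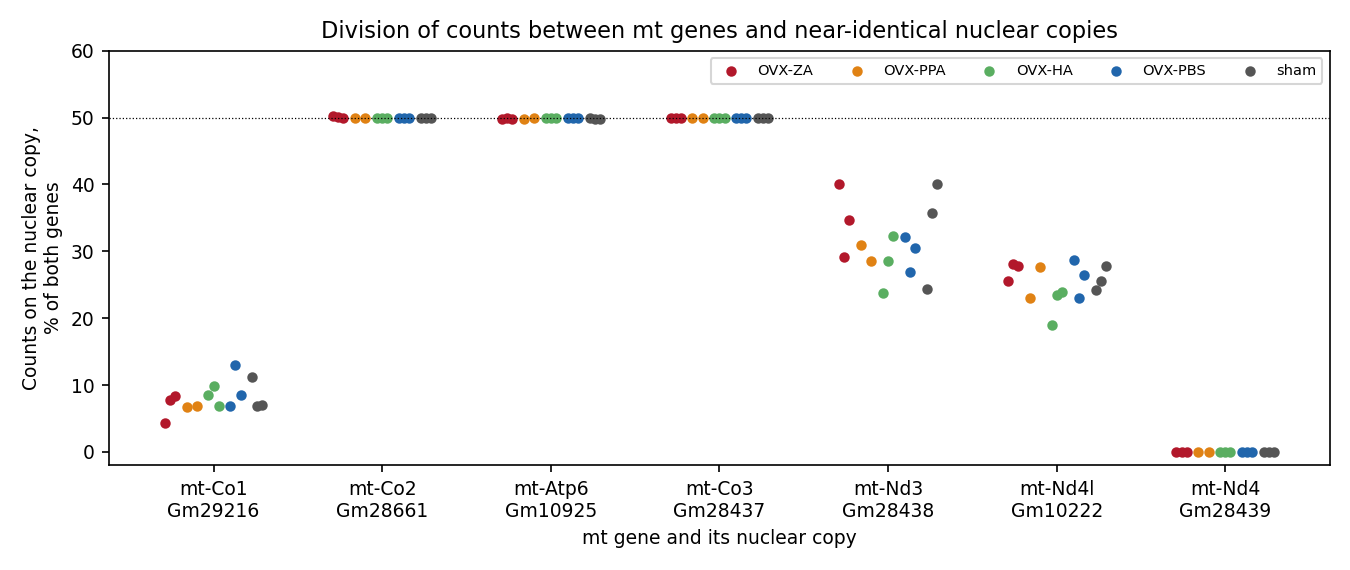
Counts assigned to the nuclear copy as a percent of the counts of the mt gene and its copy together, for 7 pairs; points are the 14 libraries, coloured by group, and the dotted line is 50%. The pairs of mt-Co2, mt-Atp6 and mt-Co3 lie at 50% in all groups, the pairs of mt-Nd3 and mt-Nd4l spread between 18.9% and 40.1%, and that of mt-Nd4 lies near 0.

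For the comparisons between groups, 20 of the 37 genes passed the filter on low counts: the 13 mRNAs, both rRNAs and the tRNAs mt-Ts1, mt-Tl1, mt-Te, mt-Ty and mt-Tq. The other 17 tRNA genes were not tested. All p-values come from edgeR's quasi-likelihood test fitted over the 21761 genes that passed, with Benjamini-Hochberg adjustment over all of them and a threshold of 0.05. In whole tibia, fewer cells of a type and less RNA per cell cannot be told apart.

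After ovariectomy with saline, no mitochondrial gene differed from sham by the test (0 of 20), as none did among all genes (0%). The smallest adjusted p among the 20 was 0.913 by edgeR, and no member had an unadjusted p under 0.05. DESeq2 called 0 members, and 1 of all 21761 genes. The fitted log2 difference, OVX-PBS minus sham, was positive for 18 of the 20 genes and for 13 of 13 mRNAs, with a median over the 20 of 0.15, beside 0.008 over all genes tested. mt-Co1 had 53936, 39285 and 30651 CPM in OVX-PBS, against 36766, 27306 and 43266 CPM in sham. Its groups overlapped and the log2 difference was 0.21 ± 0.298 (SE). Of the mRNAs, the difference was smallest for mt-Nd5 (0.04 ± 0.231) and largest for mt-Nd3, at 1460 ± 392 CPM in OVX-PBS and 1160 ± 347 CPM in sham (0.33 ± 0.244; SD, n = 3 each). None of the 20 genes had groups that did not overlap, where 7.63% of all genes did.

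The direction in that comparison rested on single libraries. Without OVX-PBS replicate 1 the median over the members was -0.08, and without sham replicate 2 it was -0.06. Those libraries also had the extremes of a list of 12 skeletal muscle markers, all detected in every library. Its summed level was 77800, 72600 and 49300 CPM in OVX-PBS, against 53200, 36300 and 71800 CPM in sham. Muscle creatine kinase (Ckm) had 7960 CPM in OVX-PBS replicate 1 and 3410 CPM in sham replicate 2, and skeletal actin (Acta1) had 15600 CPM and 7780 CPM in these libraries. With the muscle score as a term of the fit, the median over the members was -0.07. OVX-PBS replicate 1 and sham replicate 2 also had the highest and lowest mitochondrial share of all libraries, 15.68% and 9.96%. In some other libraries the order by markers and by share differed. Among these, OVX-HA replicate 3 had 75600 CPM of the markers and a share of 12.16%, and OVX-PPA replicate 1 had 52000 CPM and 14.08%. In this and the other comparisons, the part of muscle in the mitochondrial levels was not tested.

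Hippuric acid after ovariectomy gave no call either (0 of 20 members; 0% of all genes). By edgeR every member had an adjusted p of 1, and 1 member had an unadjusted p under 0.05. DESeq2 called 0 members, and 0 of all 21761 genes. The fitted differences, OVX-HA minus OVX-PBS, were negative for 19 of 20 genes and for all 13 mRNAs, with a median of -0.24, beside 0.014 over all genes. mt-Co1 had 35847, 34241 and 34745 CPM in OVX-HA, against 53936, 39285 and 30651 CPM in OVX-PBS. The 3 OVX-HA libraries were alike and lay inside the range of OVX-PBS. Among the mRNAs, the difference was -0.33 ± 0.281 for mt-Nd2, at 8920 ± 1340 CPM in OVX-HA and 11200 ± 3470 CPM in OVX-PBS, and -0.10 ± 0.231 for mt-Nd5 (± SE of the difference; levels ± SD, n = 3 each).

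The member with the unadjusted p under 0.05 was mt-Tl1. Its counts were 22, 16 and 12 in OVX-HA, against 32, 27 and 27 in OVX-PBS. The log2 difference was -1.15 ± 0.443 (SE), with adjusted p = 1 by edgeR's quasi-likelihood test. mt-Te had 11, 11 and 8 counts in OVX-HA, against 13, 16 and 13 in OVX-PBS. These were the 2 members whose scaled levels did not overlap between the groups, where 4.08% of all genes did. mt-Tl1 had 11 to 32 counts in a library over the whole series, so each value rests on few reads. Without OVX-PBS replicate 1 the median difference over the members was -0.02, and with the muscle score in the fit it was -0.05. Summed muscle markers were 50400, 45500 and 75600 CPM in OVX-HA, against 77800, 72600 and 49300 CPM in OVX-PBS.

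In the comparison of 3-(3-hydroxyphenyl)propionic acid with saline, 0 of 20 members were called (0% of all genes), with adjusted p-values of 1 throughout by edgeR. No member had an unadjusted p under 0.05. DESeq2 called 0 members, and 0 of all 21761 genes. Differences, OVX-PPA minus OVX-PBS, were positive for 6 and negative for 14 of the 20, with a median of -0.11, beside -0.018 over all genes. The OVX-PPA libraries had 41550 and 33717 CPM of mt-Co1, inside the 30651 to 53936 CPM of the OVX-PBS libraries. mt-Co3, at 7860 ± 1600 CPM in OVX-PPA (n = 2) and 8920 ± 2490 CPM in OVX-PBS (n = 3), had the lowest difference of the mRNAs (-0.18 ± 0.285). mt-Atp8 had the highest (0.28 ± 0.302; levels ± SD, differences ± SE).

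One member, mt-Ty, did not overlap between these groups, where 20.4% of all genes did. It had 22 and 15 counts in the OVX-PPA libraries, compared with 5, 2 and 8 in those of OVX-PBS. Its log2 difference was 2.19 ± 1.11 (SE), with adjusted p = 1 by edgeR's quasi-likelihood test. In OVX-ZA it had 6, 16 and 12 counts, in OVX-HA 0, 4 and 14 and in sham 0, 11 and 13, so each value rests on few reads. After scaling, mt-Ty had 0.486 to 1.19 CPM in OVX-PPA and 0.495 to 0.715 CPM in OVX-ZA. The highest OVX-HA library had 0.459 CPM and the highest sham library 0.469 CPM. The median over the members was 0.12 without OVX-PBS replicate 1, 0.05 without OVX-PPA replicate 2 and 0.12 with the muscle score in the fit. Summed muscle markers were 52000 and 54500 CPM in OVX-PPA.

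Zoledronic acid gave 0 calls of 20 (0% of all genes), with a smallest adjusted p of 0.899 among the members by edgeR. No member had an unadjusted p under 0.05. DESeq2 called 0 members, and 32 of all 21761 genes. Differences, OVX-ZA minus OVX-PBS, were positive for 8 and negative for 12 genes, with a median of -0.04, beside -0.037 over all genes tested. mt-Co1 had 39883, 38128 and 38947 CPM in OVX-ZA, against 53936, 39285 and 30651 CPM in OVX-PBS. The OVX-ZA libraries stayed within a narrow band inside the OVX-PBS range. The mRNAs ran from mt-Co3 at -0.16 ± 0.254 up to mt-Atp8 at 0.37 ± 0.272 (SE). mt-Nd6, the minus-strand mRNA, had 2703, 2812 and 2944 CPM in OVX-ZA, against 3101, 2580 and 2056 CPM in OVX-PBS, a difference of 0.13 ± 0.205.

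mt-Ty was again the only member without overlap, where 14.2% of all genes had none (log2 difference 1.68 ± 1.07; adjusted p between 0.899 and 0.995 for all members by edgeR's quasi-likelihood test). The median over the members was 0.22 without OVX-PBS replicate 1 and 0.06 with the muscle score in the fit. The muscle markers summed to 67100, 53900 and 77600 CPM in OVX-ZA. Markers of bone cells, all detected in every library, had other levels in this group: the 5 osteoclast markers summed to 1160 to 2170 CPM in OVX-ZA, against 637 to 777 CPM in OVX-PBS, and the 6 osteoblast and osteocyte markers to 958 to 1610 CPM in OVX-ZA, against 2870 to 3920 CPM in OVX-PBS. The part of these cells in the mitochondrial levels was not tested. All 3 treated groups were set against the same OVX-PBS libraries, so their differences are not independent of each other.

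**Figure D4:**
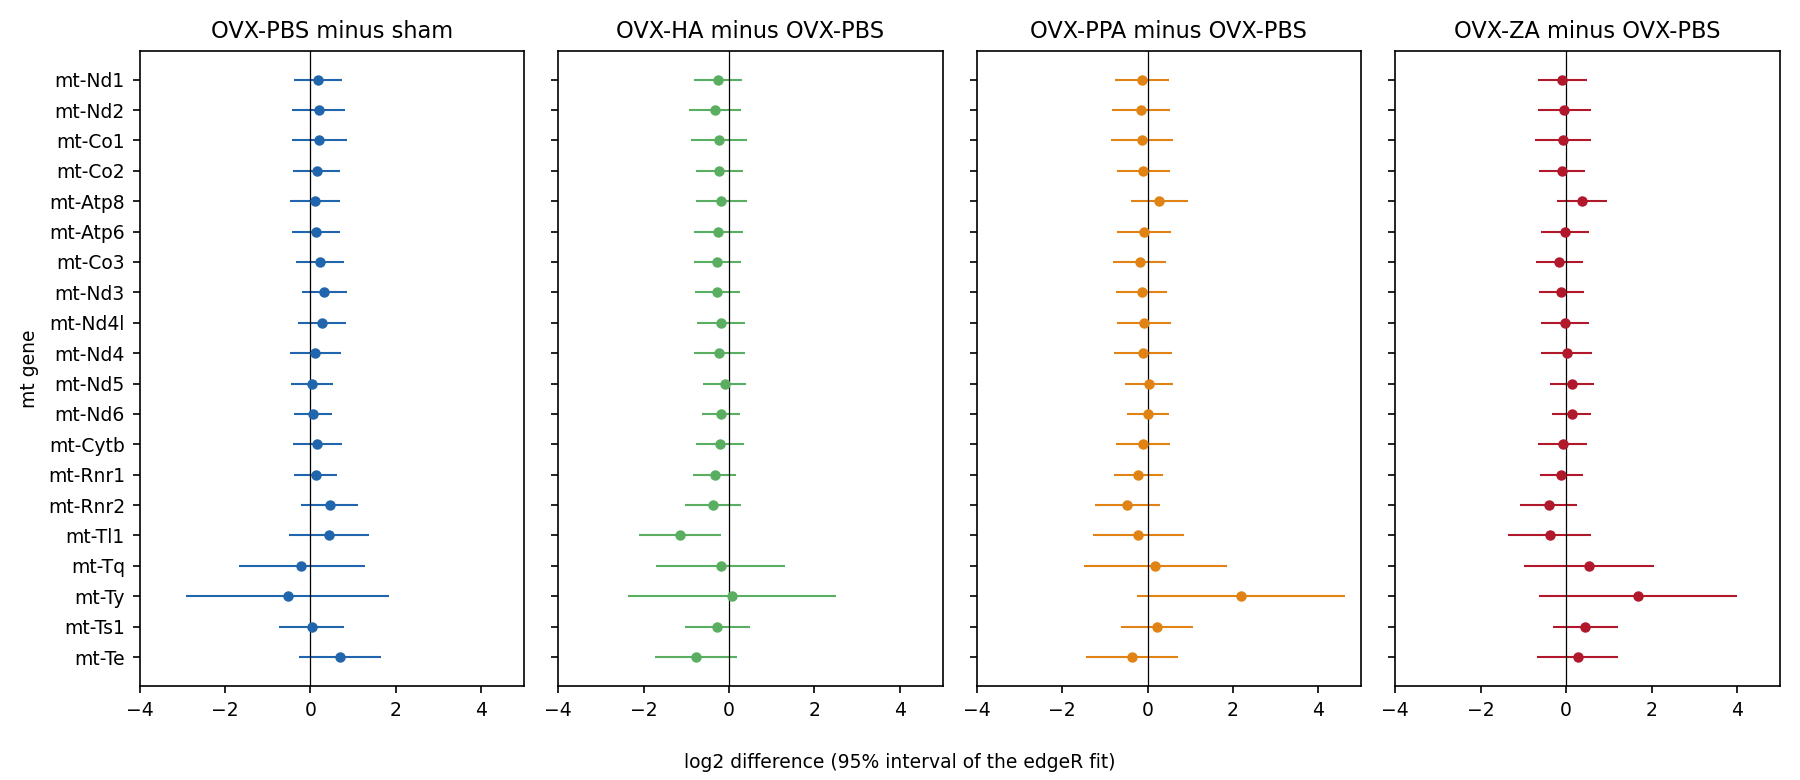
Fitted log2 difference (horizontal axis) with its 95% interval for the 20 mitochondrial genes that passed the filter, in each of the 4 comparisons. The interval of every mRNA and rRNA spans 0 in every comparison, and the one interval that does not is that of mt-Tl1 in OVX-HA minus OVX-PBS (-2.11 to -0.18).

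A test for any difference among the 5 groups called 0 members (0.0046% of all genes, that is 1 gene), with an adjusted p of 1 for each member by edgeR. No member had an unadjusted p under 0.05. DESeq2 called 0 members, and 50 of all 21761 genes. At this number of libraries, the 95% interval of the difference in mt-Co1 reached from -0.73 to 0.57 for OVX-ZA minus OVX-PBS and from -0.44 to 0.86 for OVX-PBS minus sham. These intervals, which are not adjusted for the number of genes, hold 0 and the other true differences compatible with these libraries.

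Ratios between genes of one library do not depend on how it is scaled, so the proportions of the mRNAs were also compared. No tRNA gene lies between mt-Atp8 and mt-Atp6 or between mt-Nd4l and mt-Nd4, so both genes of a pair can lie on the same RNA molecule. Their counts are per gene, and a shift in their ratio need not be a shift between separate RNAs. mt-Co1 made up 29.1% ± 0.889 of the counts on the 13 mRNAs, mt-Nd4 12.2% ± 0.383, mt-Cytb 11.1% ± 0.355 and mt-Nd1 8.87% ± 0.215 (SD, n = 14). Across the 14 libraries the coefficient of variation of a gene's part was lowest for mt-Atp6 (2.02%) and 9.54% for mt-Nd3. mt-Atp8 stood above all others at 15.96%. Between OVX-ZA and OVX-PBS the parts of 4 of the 13 mRNAs did not overlap. By level in CPM, which is another measure, 14.2% of all genes did not overlap in this comparison. The parts of a library add up to a fixed whole, so they are not independent, and no test was made. mt-Nd4 made up 12.43% to 12.7% in OVX-ZA, against 11.79% to 12.22% in OVX-PBS, and mt-Nd6 made up 2.01% to 2.13% in OVX-ZA, against 1.72% to 1.97% in OVX-PBS. mt-Co3 was lower, at 5.81% to 6.00% in OVX-ZA and 6.11% to 6.67% in OVX-PBS. The fourth was mt-Atp8. Between OVX-HA and OVX-PBS, and between OVX-PBS and sham, the parts of all 13 mRNAs overlapped. By level in CPM, 4.08% and 7.63% of all genes did not overlap there. Between OVX-PPA and OVX-PBS, of the 13 mRNAs only mt-Atp8 and mt-Co1 did not overlap. By level in CPM, 20.4% of all genes did not overlap in that comparison. mt-Co1 made up 28.93% to 29.03% in OVX-PPA, against 29.07% to 29.95% in OVX-PBS.

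mt-Atp8 made up 2.54%, 2.41% and 2.30% of mitochondrial mRNA counts in OVX-ZA, 2.35% and 2.39% in OVX-PPA, 1.74%, 1.68% and 2.18% in OVX-HA, 2.00%, 1.61% and 1.75% in OVX-PBS, and 1.58%, 2.01% and 2.07% in sham. The 5 libraries of OVX-ZA and OVX-PPA were the 5 highest. Set over its overlapping neighbour, mt-Atp8 had 0.344, 0.321 and 0.311 counts per mt-Atp6 count in OVX-ZA, and 0.312 and 0.326 in OVX-PPA. The OVX-PBS libraries had 0.266, 0.221 and 0.246. In OVX-HA the ratio was 0.245, 0.23 and 0.294, and in sham 0.207, 0.27 and 0.276. Neither OVX-ZA nor OVX-PPA overlapped OVX-PBS, while OVX-HA did. With the counts of Gm10925 added to mt-Atp6, the ratio was 0.163 ± 0.00862 in OVX-ZA (n = 3), 0.16 ± 0.00471 in OVX-PPA (n = 2), 0.128 ± 0.0171 in OVX-HA (n = 3), 0.122 ± 0.0113 in OVX-PBS (n = 3) and 0.126 ± 0.0192 in sham (n = 3; SD). OVX-ZA (0.156 to 0.173) and OVX-PPA (0.157 to 0.163) again lay above OVX-PBS (0.111 to 0.133).

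Other partners gave similar counts. Of the 12 ratios of mt-Atp8 to another mRNA, 10 did not overlap between OVX-ZA and OVX-PBS, where 35.9% of the 78 ratios of any 2 mRNAs did not, and 10 did not between OVX-PPA and OVX-PBS, where 20.5% did not. For OVX-ZA the same count was 7 of 12 for mt-Co3, 7 for mt-Nd4 and 6 for mt-Nd6. Over the pairs of OVX-HA and OVX-PBS 2.56% of ratios did not overlap, and over those of OVX-PBS and sham 5.13%. The 78 ratios include the 12 of mt-Atp8. All 12 hold that gene, so a shift in mt-Atp8 alone would move them together. The genes named here were picked out after these values were seen, the ratios share their libraries and the OVX-PBS group, and no test was made. The level of mt-Atp8 itself overlapped, at 3428, 3175 and 3218 CPM in OVX-ZA and 3369 and 2780 CPM in OVX-PPA, against 3593, 2178 and 1829 CPM in OVX-PBS.

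For the second overlapping pair, mt-Nd4l had 0.0758 ± 0.00116 counts per mt-Nd4 count in OVX-ZA (n = 3), 0.0804 ± 0.0016 in OVX-PPA (n = 2), 0.0802 ± 0.00179 in OVX-HA (n = 3), 0.0772 ± 0.0116 in OVX-PBS (n = 3) and 0.0715 ± 0.00262 in sham (n = 3; SD). The OVX-PBS libraries ranged between 0.0664 and 0.0894 and overlapped every group. mt-Nd6 and mt-Nd5 lie on opposite strands and share 14 bases. Their count ratio, mt-Nd6 over mt-Nd5, was 0.377 ± 0.00991 in OVX-ZA, 0.374 ± 0.0166 in OVX-PPA, 0.357 ± 0.021 in OVX-HA, 0.381 ± 0.0437 in OVX-PBS and 0.37 ± 0.00918 in sham, with overlap between all groups.

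**Figure D5:**
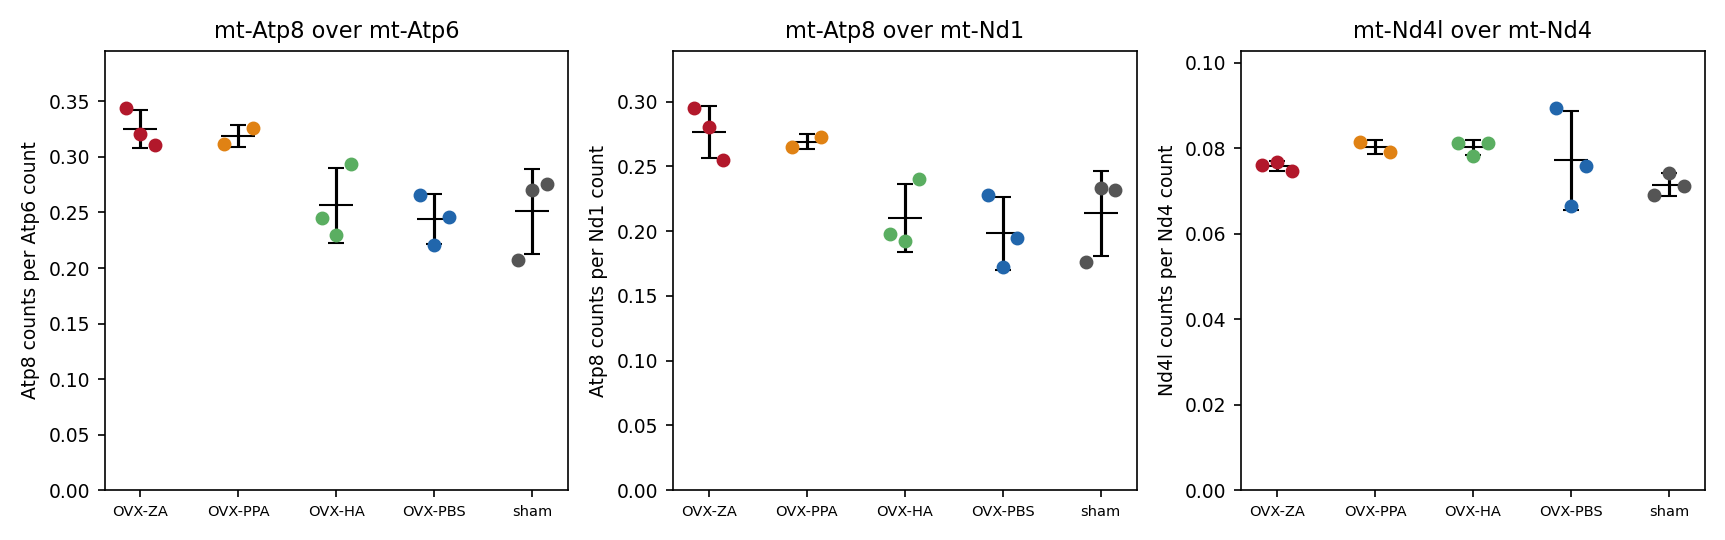
Count ratios between mitochondrial protein-coding genes in each library, by group, on axes that start at 0. Points are libraries and bars are the mean ± SD. mt-Atp8 over mt-Atp6 lies between 0.311 and 0.344 in OVX-ZA and between 0.312 and 0.326 in OVX-PPA, above the 0.221 to 0.266 of OVX-PBS, whereas mt-Nd4l over mt-Nd4 overlaps OVX-PBS in all groups; counts are as deposited, without the nuclear copies.

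The nuclear partners of these genes were described from lists of respiratory chain and ATP synthase subunits, mitochondrial ribosomal proteins, factors of mitochondrial RNA synthesis and DNA copying, and biogenesis regulators, of which 217 of 218 genes passed the filter. In every comparison 0 of the 217 passed the test in either direction by edgeR. The number with an unadjusted p under 0.05 was 6 for OVX-PBS minus sham, 3 for OVX-HA, 5 for OVX-PPA and 13 for OVX-ZA, each minus OVX-PBS. As a share of the 217 genes this was 2.76%, 1.38%, 2.3% and 5.99% in that order, where the share over all genes tested was 2.73%, 1.47%, 1.87% and 3.36%. For OVX-PBS minus sham, the fitted difference was positive for 203 of the 217, with a median of 0.16, beside 0.008 over all genes. Each treated group minus OVX-PBS gave few positive differences: 15 for OVX-HA (median -0.18), 17 for OVX-PPA (median -0.20) and 13 for OVX-ZA (median -0.19). Medians over all genes tested were 0.014, -0.018 and -0.037 for OVX-HA, OVX-PPA and OVX-ZA. These 3 comparisons share the OVX-PBS libraries. Summed skeletal muscle markers averaged 66200 CPM in OVX-ZA, 53250 in OVX-PPA and 57167 in OVX-HA, against 66567 in OVX-PBS, and their part in these medians was not tested.

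Subunits of complex I illustrate these values. The nuclear list of complex I had a median difference of 0.21 for OVX-PBS minus sham, and of -0.29 for OVX-HA, -0.25 for OVX-PPA and -0.23 for OVX-ZA, each minus OVX-PBS. Ndufc1, an accessory subunit, had 48.3 ± 3.43 CPM in OVX-HA (n = 3) and 48.2 ± 4.24 in OVX-PPA (n = 2), against 66.3 ± 17.1 in OVX-PBS (n = 3; SD). In complex II, which has no mitochondrially encoded subunit, the iron-sulfur protein Sdhb had 228 ± 14.9 CPM in OVX-ZA and 212 ± 23.5 in OVX-HA, against 284 ± 72.2 in OVX-PBS. Of the listed genes the smallest unadjusted p belonged to a mitochondrial ribosomal protein in 2 comparisons, OVX-PPA and OVX-ZA with OVX-PBS. Mrps26 had 19.1 ± 0.821 CPM in OVX-PPA (n = 2) and 26.2 ± 2.43 CPM in OVX-PBS (n = 3) (log2 difference -0.46 ± 0.124; adjusted p = 1 by edgeR). Mrpl15 had 38.4 ± 3.43 CPM in OVX-ZA, against 51.4 ± 9.6 in OVX-PBS (-0.42 ± 0.137; adjusted p = 0.899 by edgeR).

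Factors that act on mitochondrial RNA had smaller medians, 0.11 for OVX-PBS minus sham and -0.08, -0.11 and -0.11 for OVX-HA, OVX-PPA and OVX-ZA minus OVX-PBS. Lrpprc, which stabilises mitochondrial mRNAs, had 73.8 ± 7.1 CPM in OVX-HA, against 85.1 ± 11.6 in OVX-PBS. Esrra, a nuclear receptor that drives genes of oxidative metabolism, had 66.5 ± 6.52 CPM in OVX-ZA, 67.4 ± 8.84 in OVX-PPA and 63.6 ± 3.09 in OVX-HA, against 80.3 ± 16.3 in OVX-PBS (SD). None of these passed the threshold.

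Of the other markers measured, nervous tissue transcripts set 2 libraries apart: the 7 central nervous system markers summed to 430 CPM in OVX-HA replicate 2 and 466 CPM in OVX-PBS replicate 1, against 1850 to 5300 CPM in the rest. The myelin gene Mobp had 1.17 and 5.55 CPM in these 2 libraries. OVX-PBS replicate 1 is also the library with the highest mitochondrial share (15.68%), while OVX-HA replicate 2 had 11.01%. A link between nervous tissue and mitochondrial share was not tested. Without both libraries the median difference over the members was -0.07 for OVX-PBS minus sham, -0.03 for OVX-HA, 0.12 for OVX-PPA and 0.24 for OVX-ZA, each minus OVX-PBS. Brown fat markers, all 5 detected in each library, summed to 128 to 481 CPM, with Ucp1, the uncoupling protein of brown fat, at 12.5 to 226 CPM. Their part in the mitochondrial levels was not tested. Glycam1, a lymph node transcript, had 14.6, 38.6 and 0 CPM in OVX-ZA and 32.5 CPM in 1 sham library, against 0.915 CPM or less in the others.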

How the data were processed

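Poly(A) RNA of tibia was read as single reads on a NextSeq from stranded mRNA libraries, per the labels' protocols. The build mm10 and the tools STAR 2.7.8a, Partek, Bowtie2 2.2.5 and CASAVA 1.8.1 are named, without roles, per the submitters' processing notes. The annotation, counting tool and use of strand are not stated there. The authors deposited estimated counts per gene, which are not normalized; 20.7% were over 0.01 away from the nearest whole number, and all were rounded for the tests. The largest mt-Co1 counts are rounded to 3 digits in 8 libraries; the deposited log2 table, normalized by the authors, gave the count back, with differences of at most 0.38%.

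One edgeR 4.0.16 model (R 4.3.3, limma 3.58.1) held the 5 groups, without covariates, with TMM scaling, the filter filterByExpr and 9 residual degrees of freedom. Shares, CPM per kb and ratios were computed from the counts. Near-identical copies were found with blastn 2.17.0 against GENCODE vM21 transcripts. The fit was tested on simulated data. Alternatives were DESeq2 1.42.0, other scalings and filters, a replicate block, a muscle score, left-out libraries, 2-group fits and, added after seeing the data, adding copies to their mt gene. All protein-coding and rRNA genes and each tRNA gene past the filter are named, with at most 3 genes of a nuclear list by unadjusted p. Members and lists were chosen with earlier results of these data known.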

Additional observations from a re-analysis of the deposited data

How the results depend on the processing

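Under every alternative fitted, 0 mitochondrial genes were called, and the smallest adjusted p of a member was 0.383. Of 238 recomputed summary values, 237 stayed within the spread between replicates or, for counts of calls, did not change, and 1 moved: the median difference of OVX-ZA minus OVX-PBS became 0.24 without the libraries low in nervous tissue transcripts. A value within that spread can still have changed sign. Of 1174 recomputed differences of single mt genes, 54 moved by 1 SD of the replicates or more, and 0 were called. Small differences changed sign freely: of 80 fitted values, 43 did so without those libraries, 30 with the muscle score in the fit, 9 with total counts in place of TMM, 4 with TMM computed without mt genes, 4 without the low-count filter, 3 with DESeq2, 2 with the replicate block and 0 with nuclear copies added, and 4 of 74 did so with only the 2 groups compared. Leaving out one library at a time, the median lay between -0.08 and 0.34 for OVX-PBS minus sham, and, each minus OVX-PBS, between -0.40 and -0.02 for OVX-HA, between -0.27 and 0.12 for OVX-PPA and between -0.13 and 0.22 for OVX-ZA. Correlations of same-numbered deviations from the group means ran from -0.55 to 0.43. With 2 or 3 libraries in a group, they cannot decide whether replicate numbers pair the samples. With the replicate block the medians were 0.16 for OVX-PBS minus sham and -0.23, -0.11 and -0.02 for OVX-HA, OVX-PPA and OVX-ZA minus OVX-PBS, with 0 calls. Counts of tRNA and rRNA genes limit what depth can show for them.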
